A study of Mus musculus with 9 samples.

Results

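The platelet-derived growth factor (PDGF) family was examined through 7 genes, the ligand genes Pdgfa, Pdgfb, Pdgfc and Pdgfd, the receptor tyrosine kinase genes Pdgfra and Pdgfrb, and Pdgfrl, which encodes a receptor-like protein without a kinase domain. They were taken by family membership, with earlier results of these data known, and all 7 were found among the 16755 genes of the table. RNA was sequenced from liver of male mice in 3 groups of 3, of C57BL/6 strain by the labels and C57BL/6J background by the study's methods. Scd2f/f mice, in which exon 3 of Scd2 is floxed, and Scd2f/f;Col1a1-Cre mice (Scd2f/f;CC), which also carry Cre under the Col1a1 promoter, were given the carcinogen diethyl nitrosamine (DEN, 10 mg/kg) when 2 weeks old. A Western alcohol diet (WAD), which combines fat, cholesterol and ethanol, followed from the age of 6 weeks. It lasted 4 months by the labels and longer by the study's methods. The third group was untreated Scd2f/f mice. The floxed alleles are thus shared by all groups, and the labels call the tissue liver. The study calls the treated tissue tumor-adjacent liver (TAL), which by its account held tumors seen under the microscope but none visible by eye, while its RNA methods name it NTL; TAL is used here. Cre acts in cells that express Col1a1, which in liver are stellate cells and portal fibroblasts, while the RNA is from whole tissue.

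PDGF ligands are secreted dimers that bind and pair receptor chains at the cell surface. PDGF-A and PDGF-B are cut inside the producing cell by furin-like convertases, whereas PDGF-C and PDGF-D are released in latent form and become active after plasminogen activators remove a CUB domain. PDGF-AA and PDGF-CC signal mainly through PDGFRA, PDGF-DD mainly through PDGFRB, and PDGF-BB through both. In liver, the beta receptor marks hepatic stellate cells, its gene is induced when they become myofibroblasts, and PDGF-BB is a classical mitogen for these cells.

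Values are the authors' group means of normalized read counts, 1 mean for the 3 mice of a group, so no spread between mice can be computed from them, and a ratio below describes 2 means with no test. The deposited table also gives the authors' own p-values, which were not used here. Depth is unknown. The 75th percentile over all genes was 15.5 in untreated Scd2f/f liver, 15.5 in TAL of Scd2f/f mice and 15.4 in TAL of Scd2f/f;CC mice, and the lowest mean in any group was 0.0348. The targeted gene, Scd2, was at 2.46 in untreated Scd2f/f liver, 6.47 in TAL of Scd2f/f mice and 1.87 in TAL of Scd2f/f;CC mice. The tissue label was checked against 8 hepatocyte markers, whose means were 181 or more in every group. Of these, 6 had a lower and 2 a higher mean in Scd2f/f mice after DEN and WAD than in untreated liver, with Tat, a tyrosine catabolic enzyme, at 499, 181 and 305 and Apoa1, an apolipoprotein, at 4730, 2890 and 3680 in the same order of groups. In whole liver, fewer cells of a type and less RNA per cell cannot be told apart.

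Both receptor kinase genes were highest in TAL of Scd2f/f mice. Pdgfrb, on chromosome 18 from 61045150 to 61085061 on the plus strand, had a group mean of 6.08 in untreated Scd2f/f liver, 9.91 in TAL of Scd2f/f mice and 4.75 in TAL of Scd2f/f;CC mice. It was 1.63-fold higher in TAL of Scd2f/f mice than in untreated liver and 2.09-fold lower in TAL of Scd2f/f;CC mice than in TAL of Scd2f/f mice, which placed the Scd2f/f;CC mean below that of untreated liver. Pdgfra, on chromosome 5 from 75152292 to 75198215 on the plus strand, had a group mean of 5.57 in untreated Scd2f/f liver, 8.89 in TAL of Scd2f/f mice and 5.05 in TAL of Scd2f/f;CC mice. The order of the groups was the same as for Pdgfrb, with a 1.60-fold higher mean in TAL of Scd2f/f mice than in untreated liver and a 1.76-fold lower mean in TAL of Scd2f/f;CC mice than in TAL of Scd2f/f mice. Pdgfrl, on chromosome 8 from 40926212 to 40990785 on the plus strand, was low throughout, at 0.542 in untreated Scd2f/f liver, 0.449 in TAL of Scd2f/f mice and 0.395 in TAL of Scd2f/f;CC mice. Unlike the kinase receptors, it had its highest mean in untreated liver. Coordinates are those of GENCODE M21 on GRCm38, with which the starts in the table agree exactly for 6 of the 7 genes, Pdgfb being the exception.

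**Figure D1:**
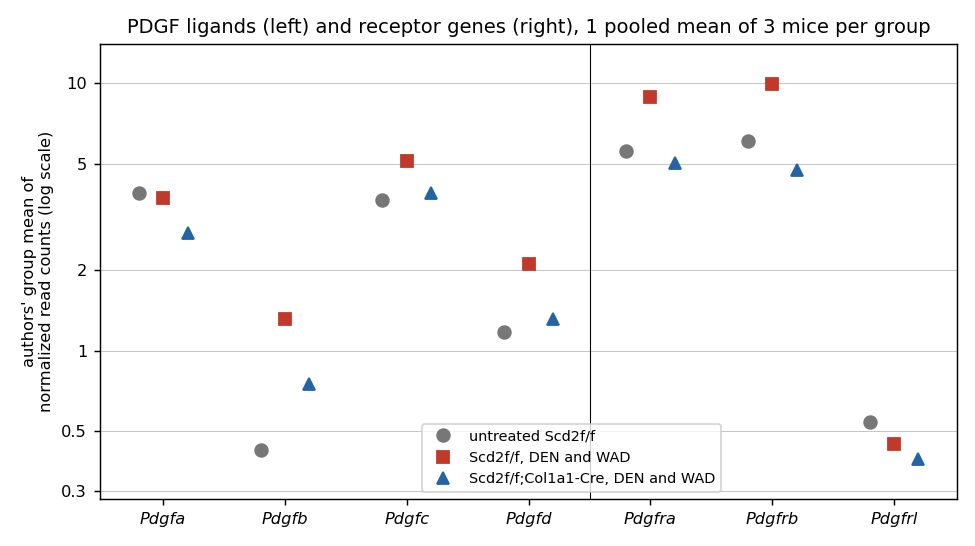
Group mean of normalized read counts (authors' means, log axis) for the 4 ligand genes and 3 receptor genes in untreated Scd2f/f liver (grey circles), TAL of Scd2f/f mice (red squares) and TAL of Scd2f/f;CC mice (blue triangles). Each point is 1 mean of 3 mice without an error bar. TAL of Scd2f/f mice is the highest group for 5 genes, Pdgfb, Pdgfc, Pdgfd, Pdgfra and Pdgfrb, while Pdgfa and Pdgfrl are highest in untreated liver.

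Among the 4 ligand genes, Pdgfb had the widest range as a ratio between groups. This gene, on chromosome 15 from 79995874 to 80014977 on the minus strand, encodes the B chain, which endothelial cells and platelets supply and which binds both receptors. Its group mean was 0.427 in untreated Scd2f/f liver, 1.31 in TAL of Scd2f/f mice and 0.749 in TAL of Scd2f/f;CC mice. TAL of Scd2f/f mice was 3.07-fold above untreated liver, and TAL of Scd2f/f;CC mice was 1.75-fold below TAL of Scd2f/f mice but still 1.75-fold above untreated liver. Pdgfd, on chromosome 9 from 6168584 to 6378850 on the plus strand and encoding a ligand of the beta receptor, had a group mean of 1.18 in untreated Scd2f/f liver, 2.11 in TAL of Scd2f/f mice and 1.32 in TAL of Scd2f/f;CC mice. It was 1.79-fold higher in TAL of Scd2f/f mice than in untreated liver and 1.60-fold lower in TAL of Scd2f/f;CC mice than in TAL of Scd2f/f mice.

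Pdgfc and Pdgfa, whose products signal mainly through the alpha receptor, differed less between groups. Pdgfc, on chromosome 3 from 81036416 to 81214040 on the plus strand, had a group mean of 3.66 in untreated Scd2f/f liver, 5.14 in TAL of Scd2f/f mice and 3.88 in TAL of Scd2f/f;CC mice. TAL of Scd2f/f mice was thus 1.40-fold above untreated liver, and TAL of Scd2f/f;CC mice was 1.32-fold below TAL of Scd2f/f mice. Pdgfa, on chromosome 5 from 138976014 to 138997370 on the minus strand, had a group mean of 3.90 in untreated Scd2f/f liver, 3.71 in TAL of Scd2f/f mice and 2.76 in TAL of Scd2f/f;CC mice. It was the ligand whose mean was not higher after DEN and WAD, and its Scd2f/f;CC mean was 1.34-fold below TAL of Scd2f/f mice and 1.41-fold below untreated liver. PDGF-A is made with or without a C-terminal retention motif through alternative splicing, and a value per gene does not separate the 7 transcripts that GENCODE M21 annotates for Pdgfa.

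The promoters of 2 genes with unlike patterns are shown, Pdgfra, with its highest mean in treated Scd2f/f mice, and Pdgfa, with its highest mean in untreated mice. They are RefSeq reference sequence on GRCm38.p6 from 250 bases before to 50 after the annotated start, printed along the gene. The promoter table held 4 of the 7 genes, Pdgfa, Pdgfc, Pdgfd and Pdgfra. The motifs searched on both strands were CCAAT (bound by NF-Y), GGGCGG (Sp1), TGACTCA (AP-1) and CATTCC (TEAD, the partners of YAP1), and capitals mark matches, none of which overlap. The Pdgfra window is chr5:75152001-75152300 on the plus strand and the Pdgfa window chr5:138994895-138995194 on the minus strand.
Pdgfra: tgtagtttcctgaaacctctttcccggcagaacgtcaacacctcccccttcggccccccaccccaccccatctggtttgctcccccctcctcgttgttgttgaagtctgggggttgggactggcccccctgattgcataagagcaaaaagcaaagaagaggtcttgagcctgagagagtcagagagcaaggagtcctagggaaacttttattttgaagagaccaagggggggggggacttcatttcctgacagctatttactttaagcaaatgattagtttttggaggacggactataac
Pdgfa: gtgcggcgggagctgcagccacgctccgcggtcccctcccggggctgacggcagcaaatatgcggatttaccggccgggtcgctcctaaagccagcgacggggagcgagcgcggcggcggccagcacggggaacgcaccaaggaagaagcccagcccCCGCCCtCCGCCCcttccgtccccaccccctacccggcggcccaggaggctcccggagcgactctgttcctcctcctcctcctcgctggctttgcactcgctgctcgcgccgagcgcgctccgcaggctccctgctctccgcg
The Pdgfra window held no match, and the Pdgfa window held 2 matches to GGGCGG, both on the opposite strand. A second annotated start of Pdgfa had 1 match to GGGCGG. The Pdgfc window had 2 matches to CATTCC, and the Pdgfd window had no match. Over 32851 promoters of the same length, 35.7% held GGGCGG, 14.7% CATTCC, 37.4% CCAAT and 5.20% TGACTCA. The Pdgfa window was 73.3% G and C and the Pdgfra window 51.0%, against a median of 52.7% over all promoters. A match here describes letters and not a bound site.

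The first comparison, TAL of Scd2f/f mice against untreated Scd2f/f liver, sets mice given carcinogen and diet beside untreated mice, with Scd2 intact in both. By the study's account, the treated tissue held microscopic tumors, so the regimen and the presence of tumors cannot be told apart here. By mean, 5 of the 7 genes were higher and 2 lower, where 53.7% of all genes were higher and 45.8% lower. Past a 2-fold ratio of the means lay 1 of 7, Pdgfb, which was higher, beside 14.1% of all genes in either direction, 9.37% higher and 4.69% lower. Past a 1.5-fold ratio lay 4 of 7, Pdgfb, Pdgfd, Pdgfra and Pdgfrb, all higher, beside 28.5% of all genes in either direction, 17.2% higher and 11.3% lower. The median log2 ratio of the 7 genes was 0.67, and that of all genes was 0.04. Of all genes, 95.9% had a lower ratio than Pdgfb, 88.3% than Pdgfd, 85.9% than Pdgfrb, 85.2% than Pdgfra and 79.7% than Pdgfc. Ratios of low genes scatter more widely. Among the 3099 genes with an average over the groups within 2-fold of that of Pdgfb, 92.7% had a lower ratio than Pdgfb, and among the 4309 with an average like that of Pdgfrb, 91.7% had a lower ratio than Pdgfrb.

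The second comparison, TAL of Scd2f/f;CC against TAL of Scd2f/f mice, sets Cre-driven loss of Scd2 in Col1a1-expressing cells beside intact Scd2 under the same regimen. By the study's account, tumors were much reduced in Scd2f/f;CC mice, so genotype and tumor load cannot be told apart here. There was no untreated Scd2f/f;CC group. All 7 genes had the lower mean in TAL of Scd2f/f;CC mice, where 49.6% of all genes were lower and 49.5% higher. Past 2-fold lay 1 of 7, Pdgfrb, which was lower, beside 5.89% of all genes in either direction, 4.07% lower and 1.82% higher. Past 1.5-fold lay the same 4 genes as above, Pdgfb, Pdgfd, Pdgfra and Pdgfrb, now all lower, beside 15.5% of all genes in either direction, 9.80% lower and 5.72% higher. Both comparisons use the mean of TAL from Scd2f/f mice, so a high value there alone would put a gene up in the first and down in the second. The median log2 ratio of the 7 genes was -0.68, and that of all genes was 0.00. The single log2 ratios were -1.06 for Pdgfrb, -0.82 for Pdgfra, -0.81 for Pdgfb, -0.68 for Pdgfd, -0.43 for Pdgfa, -0.41 for Pdgfc and -0.18 for Pdgfrl. Of all genes, 3.56% had a lower ratio than Pdgfrb and 5.98% a lower ratio than Pdgfra. Among genes of like average, 0.975% of 4309 had a lower ratio than Pdgfrb and 2.08% of 4287 a lower ratio than Pdgfra, whereas for the low gene Pdgfb this was 9.62% of 3099.

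**Figure D2:**
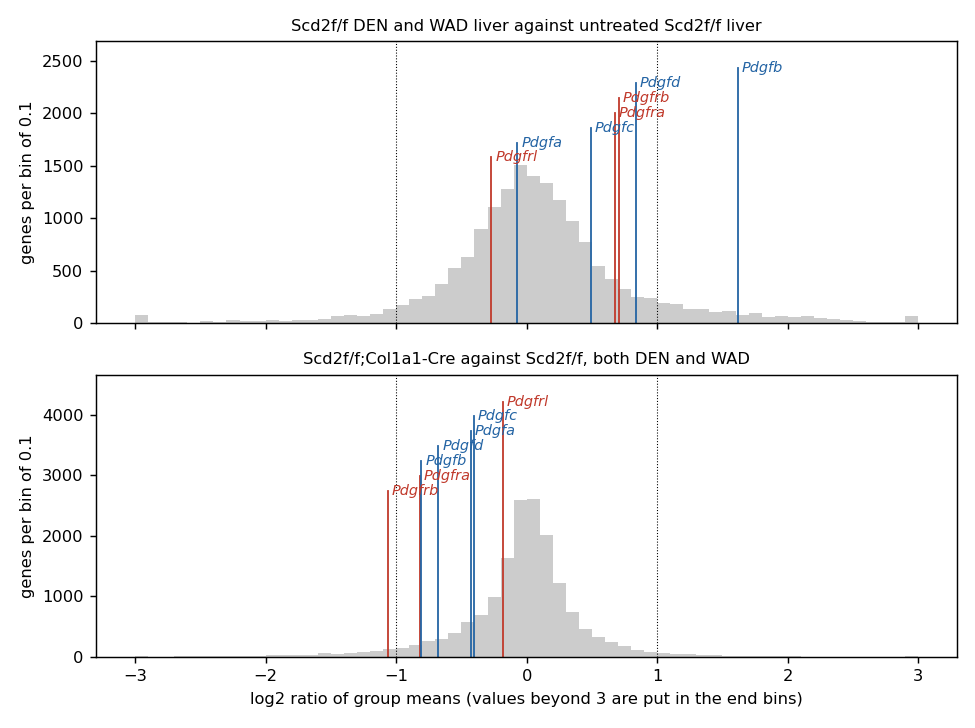
Histograms of the log2 ratio of group means over all 16755 genes (x axis, bins of 0.1; y axis, genes per bin) for TAL of Scd2f/f mice against untreated Scd2f/f liver (top) and TAL of Scd2f/f;CC against TAL of Scd2f/f mice (bottom), with ligand genes as blue and receptor genes as red lines whose heights carry no value, and dotted lines at 2-fold. Pdgfb lies past the upper line in the top panel and Pdgfrb past the lower line in the bottom panel, where all 7 genes lie below 0.

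TAL of Scd2f/f;CC mice was also set beside untreated Scd2f/f liver, a contrast in which treatment and genotype both differ. None of the 7 genes lay past 2-fold, beside 11.0% of all genes in either direction, 6.41% higher and 4.64% lower. Past 1.5-fold lay Pdgfb alone, which was higher, beside 25.7% of all genes in either direction, 14.9% higher and 10.9% lower. By mean, Pdgfb, Pdgfc and Pdgfd were higher than in untreated liver and Pdgfa, Pdgfra, Pdgfrb and Pdgfrl lower, where 54.5% of all genes were higher and 45.0% lower. The log2 ratios were 0.81 for Pdgfb, 0.16 for Pdgfd, 0.08 for Pdgfc, -0.14 for Pdgfra, -0.36 for Pdgfrb, -0.46 for Pdgfrl and -0.50 for Pdgfa. The median over the 7 genes was -0.14, and that over all genes was 0.05.

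Levels of different genes were compared per kilobase of merged exons, as the deposited means are not stated to be divided by length. In TAL of Scd2f/f mice the order was Pdgfrb at 1.81 normalized counts per kilobase, Pdgfa at 1.19, Pdgfc at 1.01, Pdgfra at 0.887, Pdgfd at 0.669, Pdgfb at 0.315 and Pdgfrl at 0.144. In untreated liver, Pdgfa led with 1.25 per kilobase, followed by Pdgfrb at 1.11, and Pdgfb was lowest with 0.103. In TAL of Scd2f/f;CC mice, Pdgfa at 0.885 per kilobase and Pdgfrb at 0.867 were close, and Pdgfrl was lowest with 0.126. That closeness depends on the length used, since per kilobase of the longest transcript Pdgfa was at 1.34, Pdgfc at 1.10 and Pdgfrb at 0.876 in the same mice. Whether neighbours in these orders differ beyond the spread between mice cannot be said from group means. Pdgfrb stood at 2.00 times the per-kilobase level of Pdgfra in untreated liver, 2.04 times in TAL of Scd2f/f mice and 1.72 times in TAL of Scd2f/f;CC mice. The size of this gap also depends on the length used. Per kilobase of the longest transcript it was smaller, with Pdgfrb at 1.12, 1.83 and 0.876 and Pdgfra at 0.815, 1.30 and 0.739 in the same order. Pdgfb stood at 0.0821 times the per-kilobase level of Pdgfa in untreated liver, 0.265 times in TAL of Scd2f/f mice and 0.203 times in TAL of Scd2f/f;CC mice. Summed per kilobase, the 4 ligand genes were at 2.45, 3.18 and 2.25 in untreated liver, TAL of Scd2f/f mice and TAL of Scd2f/f;CC mice, and the 2 kinase receptor genes at 1.67, 2.70 and 1.37. From TAL of Scd2f/f mice to TAL of Scd2f/f;CC mice the receptor sum went to 0.509 of its value and the ligand sum to 0.706.

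The kit does not mark strand, so reads of overlapping genes on the opposite strand cannot be told apart from those of the gene. In GENCODE M21, Pdgfa overlaps the antisense gene 6330403L08Rik, Pdgfd overlaps Ddi1, and Pdgfb, Pdgfc and Pdgfra overlap antisense or unclassified transcripts. Pdgfrb and Pdgfrl overlap no other annotated gene.

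The genes most like each member were found by the distance between their pairs of log2 ratios to untreated liver, over 11003 protein-coding genes with an average of at least 1 normalized count. A pattern over 3 group means is shared by many genes, and the number within a distance of 0.1 was 4 for Pdgfrb, 10 for Pdgfra, 3 for Pdgfb, 19 for Pdgfd, 83 for Pdgfc, 33 for Pdgfa and 174 for Pdgfrl. Nearest to Pdgfrb were Unc5b, a netrin receptor, with group means of 2.34 in untreated liver, 3.90 in TAL of Scd2f/f mice and 1.80 in TAL of Scd2f/f;CC mice, and then Gnai1 and Gins2. Nearest to Pdgfb was Myof, a membrane repair protein, with 3.08, 9.69 and 5.31 in the same order, followed by B4galt6 and Ifi207. Nearest to Pdgfra were 1700047I17Rik2, Samd4 and Trim47, and nearest to Pdgfd were Rnf150, Reep4 and Tmem176a. Pdgfc had Wls, a carrier of secreted Wnt proteins, at 3.49, 4.88 and 3.68, and then Lhx6 and Pcgf2. Nearest to Pdgfa were Akr1c19, Tpm4 and Zscan12, and nearest to Pdgfrl were Nos3, Usp1 and Sarnp.

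Genes that process PDGF or hold it in the matrix formed a list of 14, all in the table. In TAL of Scd2f/f mice against untreated liver, 2 were past 2-fold higher and 1 lower, with a median log2 ratio of 0.58. In TAL of Scd2f/f;CC against TAL of Scd2f/f mice, 0 were past 2-fold higher and 3 lower, with a median of -0.20. The counts in the first comparison lie near the shares of all genes, 9.37% higher and 4.69% lower, and 4.07% of all genes were lower in the second. Low genes carried part of these counts. Among the 11 with an average of at least 1, Plau alone was past 2-fold in the first comparison and Thbs1 alone in the second. Plau, the urokinase that can activate PDGF-D, had group means of 0.626 in untreated Scd2f/f liver, 2.05 in TAL of Scd2f/f mice and 1.2 in TAL of Scd2f/f;CC mice, the same order of groups as Pdgfd. Sparc, a matrix protein that binds PDGF-B, had 22.9, 38.5 and 23.9, and Thbs1, a matricellular protein, had 3.63, 7.19 and 2.29. Unlike Pdgfd, Thbs1 had its lowest mean in TAL of Scd2f/f;CC mice. Lrp1, an endocytic receptor that associates with PDGFRB, had its highest mean in those mice, with 568, 896 and 989.

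Cytoplasmic partners of the receptors differed little between groups. Of 24 genes of the signaling core, such as adaptors, kinases and the PI3-kinase subunits, 1 was past 2-fold higher and 0 lower in TAL of Scd2f/f mice against untreated liver, and 0 in either direction in TAL of Scd2f/f;CC against TAL of Scd2f/f mice. Their median log2 ratios were 0.13 and -0.05, near the 0.04 and 0.00 of all genes. Past 2-fold in either direction were 14.1% of all genes in the first comparison and 5.89% in the second. Nck2, an adaptor that binds the activated beta receptor, was the gene past 2-fold, with group means of 0.846 in untreated liver, 1.92 in TAL of Scd2f/f mice and 1.64 in TAL of Scd2f/f;CC mice. Src was at 1.47, 1.86 and 1.36, and Mapk3, which encodes ERK1, at 8.09, 11.1 and 9.20.

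Of 15 genes that dampen receptor signaling, 1 was past 2-fold higher in TAL of Scd2f/f mice than in untreated liver, and in TAL of Scd2f/f;CC against TAL of Scd2f/f mice 1 was past 2-fold higher and 1 lower, with medians of 0.43 and -0.10. Of all genes, 9.37% were past 2-fold higher in the first comparison, and 1.82% higher and 4.07% lower in the second. Socs3, an inhibitor of cytokine signaling, had group means of 6.44 in untreated liver, 16.2 in TAL of Scd2f/f mice and 4.71 in TAL of Scd2f/f;CC mice. Spry4 and Dusp6, feedback inhibitors of the ERK pathway, had their highest means in TAL of Scd2f/f;CC mice, unlike the receptors. Spry4 was at 2.49, 3.75 and 7.53, and Dusp6 at 20.5, 29.8 and 40.4. Their relatives Spry1, at 1.52, 2.27 and 1.84, and Spry2, at 0.537, 0.723 and 0.578, were highest in TAL of Scd2f/f mice. By mean, 5 of the 15 genes were higher and 10 lower in the second comparison, where 49.5% of all genes were higher and 49.6% lower.

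Genes known as PDGF-induced in cultured fibroblasts, which respond to many other signals too, formed a list of 18 of which 17 were in the table. In TAL of Scd2f/f mice against untreated liver, 8 were past 2-fold higher and 0 lower, with a median log2 ratio of 0.996. In TAL of Scd2f/f;CC against TAL of Scd2f/f mice, 0 were past 2-fold higher and 8 lower, with a median of -0.71, and all 17 had the lower mean. The shares of all genes were 9.37% higher in the first comparison and 4.07% lower in the second. Low genes carried much of both counts. Among the 10 with an average of at least 1, 3 were past 2-fold higher in the first comparison, Fos, Egr1 and Hmox1, and 2 were past 2-fold lower in the second, Myc and Cxcl1. Egr1, an immediate early transcription factor, had group means of 5.59, 18.1 and 13.4 in untreated liver, TAL of Scd2f/f mice and TAL of Scd2f/f;CC mice. Myc was at 6.84, 6.41 and 2.05, so its mean was not higher in TAL of Scd2f/f mice and was lower in TAL of Scd2f/f;CC mice. Cxcl1, a neutrophil chemokine first known as the PDGF-induced gene KC, was at 11.8, 17.5 and 5.04.

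**Figure D3:**
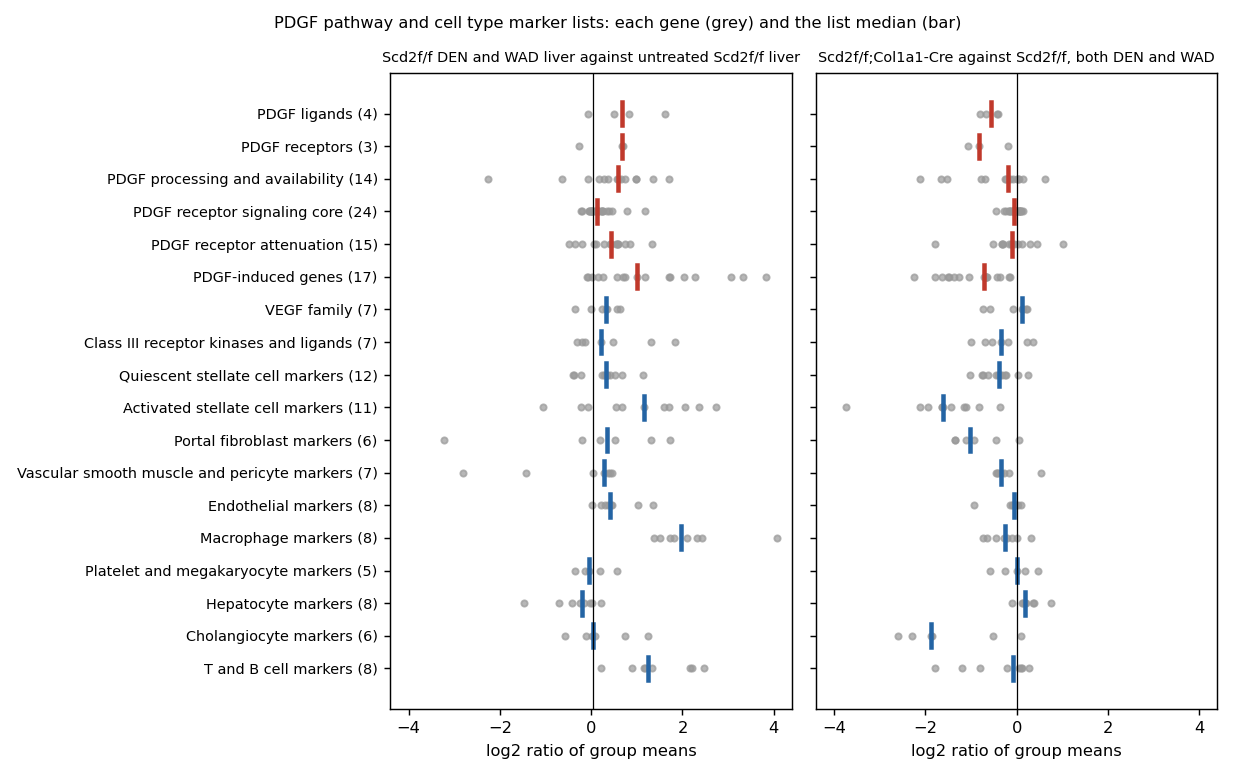
Log2 ratio of group means (x axis) of each gene (grey points) in PDGF pathway and cell type marker lists, with the list median as a bar, red for PDGF lists and blue for others, and the number of genes found in parentheses; the black line is the median of all genes. PDGF ligands and receptors have medians of 0.66 and 0.67 in TAL of Scd2f/f mice against untreated liver (left) and of -0.55 and -0.82 in TAL of Scd2f/f;CC against TAL of Scd2f/f mice (right), while the signaling core stays near the line in both panels.

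A pair of related families were set beside the PDGF genes. The VEGF family, whose ligands share the cystine knot fold of PDGF, had 7 of its 8 genes in the table. Of these, 0 were past 2-fold in either comparison, beside 14.1% of all genes in the first and 5.89% in the second. The median log2 ratio of the family was 0.33 in TAL of Scd2f/f mice against untreated liver and 0.12 in TAL of Scd2f/f;CC against TAL of Scd2f/f mice. By mean, 4 of the 7 were higher and 3 lower in the second comparison, where 49.5% of all genes were higher and 49.6% lower. Vegfa, the main angiogenic ligand, was at 34.5, 26.9 and 31.7. Vegfb was at 3.51, 4.45 and 2.67, the same order of groups as Pdgfrb. The other class III receptor kinases, relatives of the PDGF receptors, and their ligands gave 7 genes. Of these 7, 2 were past 2-fold higher in TAL of Scd2f/f mice than in untreated liver, beside 9.37% of all genes. In TAL of Scd2f/f;CC against TAL of Scd2f/f mice, 0 of the 7 were past 2-fold. The medians of the 7 genes were 0.22 and -0.35. Csf1r, the macrophage receptor of this class, was at 17.0, 60.8 and 53.5, high in both treated groups.

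Markers of cells that carry PDGF receptors differed between the groups too. Of 11 markers of activated stellate cells, 6 were past 2-fold higher and 1 lower in TAL of Scd2f/f mice against untreated liver, and 9 were past 2-fold lower in TAL of Scd2f/f;CC against TAL of Scd2f/f mice, with medians of 1.15 and -1.61. Of all genes, 9.37% were past 2-fold higher and 4.69% lower in the first comparison, and 4.07% lower in the second. The summed means of the 11 markers were 106 in untreated liver, 175 in TAL of Scd2f/f mice and 63.9 in TAL of Scd2f/f;CC mice. A large part of the untreated sum was 1 gene, Spp1, whose means are given below. Col1a1 was at 4.69, 19.6 and 4.51, an order like that of Pdgfrb with wider steps to and from TAL of Scd2f/f mice. In TAL of Scd2f/f;CC mice against untreated liver, its log2 ratio was -0.06, beside -0.36 for Pdgfrb. The list was not uniform, since 8 of the 11 had a higher and 3 a lower mean in TAL of Scd2f/f mice than in untreated liver. Those 3 were highest in untreated liver, unlike Pdgfrb, with Spp1 (osteopontin) at 52.3, 45.1 and 14.8, Tagln (a smooth muscle actin-binding protein) at 7.85, 3.79 and 1.75, and Acta2 (smooth muscle actin), which was chosen after its values were seen, at 1.27, 1.2 and 0.388. Of 12 markers of quiescent stellate cells, 1 was past 2-fold higher in the first comparison and 1 lower in the second, with medians of 0.33 and -0.39 and summed means of 168, 206 and 172. Ngfr was at 1.49, 3.25 and 2.37, and Cygb at 3.96, 4.94 and 2.43. The log2 ratio of -1.06 of Pdgfrb in the second comparison thus lay between the medians of the quiescent and activated lists. The part that stellate cell number or state has in the PDGF values was not tested.

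**Figure D4:**
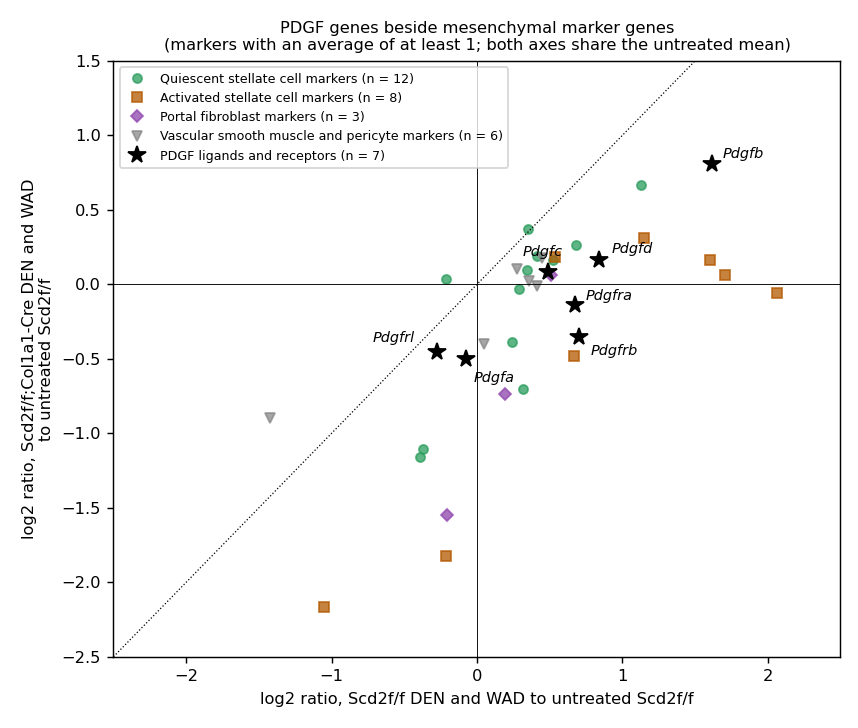
Log2 ratio to untreated Scd2f/f liver in TAL of Scd2f/f mice (x axis) and in TAL of Scd2f/f;CC mice (y axis) for the 7 PDGF genes (stars) and for markers with an average of at least 1; the untreated mean enters both axes, and points below the dotted line are lower in TAL of Scd2f/f;CC mice than in TAL of Scd2f/f mice. All 7 stars lie below that line, and Pdgfrb, at 0.70 and -0.36, lies farthest from it among the members.

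Portal fibroblast markers, 6 of 8 in the table, had medians of 0.35 and -1.02 and summed means of 5.35, 6.66 and 3.40 in untreated liver, TAL of Scd2f/f mice and TAL of Scd2f/f;CC mice. Smooth muscle and pericyte markers, 7 of 8 in the table, had medians of 0.27 and -0.34 and summed means of 57.3, 72.3 and 59.2, with 0 past 2-fold in the second comparison. They were not uniform in the first, where 5 had a higher and 2 a lower mean. Both lower genes were past 2-fold, and 0 were past 2-fold higher. One was Myh11, at 2.79, 1.04 and 1.5, and the other had an average below 1. A large part of the sums was Rgs5, at 25.3, 34.5 and 28.6. For the cells that supply PDGF-B, all 8 endothelial markers were higher in TAL of Scd2f/f mice than in untreated liver, with a median of 0.40 and summed means of 111, 151 and 146. Platelet and megakaryocyte markers, 5 of 8 in the table, had a median of -0.04 and summed means of 3.65, 4.36 and 4.00. By mean, 2 of the 5 were higher and 3 lower in the first comparison. A large part of the sums was Itgb3, at 1.64, 2.44 and 2.04. All 8 macrophage markers were past 2-fold higher in TAL of Scd2f/f mice, with a median of 1.96 and summed means of 89.9, 357 and 289. Of all genes, 53.7% had a higher mean in the first comparison, and 9.37% were past 2-fold higher and 4.69% lower. In the second, 4.07% of all genes were past 2-fold lower and 1.82% higher. Hepatocyte markers had medians of -0.20 and 0.19. Cholangiocyte markers, 6 in all, had medians of 0.05 and -1.87, with 4 past 2-fold lower in TAL of Scd2f/f;CC mice, and the 8 T and B cell markers had medians of 1.25 and -0.09. Many of these markers are low genes, whose ratios scatter more widely. An average of at least 1 was reached by 3 of the 6 cholangiocyte and 0 of the 8 T and B cell markers. The same held for 3 of the 6 portal fibroblast and 2 of the 5 platelet and megakaryocyte markers found. The part of these cell types in the PDGF values was not tested. Markers that were not found in the table have no value here.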

How the data were processed

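RNA was sequenced from liver of 3 mice in each of 3 groups, named from the sample titles. In Partek Flow, the authors assigned reads to Gencode M3 genes by the E/M method, scaled samples to their upper quartile and modelled groups by Gene Specific Analysis. STAR 2.6.1, Partek 6 and mm10 are named in the submitters' processing notes. The deposited signal values are 1 least-squares mean per group, with 3 significant digits. Their scale, and whether means were taken on a log scale, is not given in the sources used here. The deposited table also holds the authors' p-values with their false discovery rate, a ratio of the means and that ratio as a signed fold change (a score below 0 for lower means), for 2 comparisons. These were not used.

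Only group means were used, not values per mouse, so their ratios were computed with no test. Depth per sample is unknown, and no interval that needs counts is given. A gene was counted as past a fold when the ratio reached 2 in either direction, with no pseudocount and no filter. Named beside the 7 members are up to 3 genes per list and comparison with the largest absolute log2 ratio and an average over the groups of at least 1, and the 3 nearest genes by pattern. Scd2 was named as the targeted gene, and Acta2, Spry1 and Spry2, outside this rule, were chosen after their values were seen. Of the 16755 genes, 16171 symbols were found in GENCODE M21, which gave coordinates, lengths and overlaps. The members and lists were chosen with earlier results of these data known, so no list is independent support. Alternatives were other folds, pseudocounts of 0.1 and 1, centring on the median, a minimum average of 1, and the length of the longest transcript. The ratio and fold steps were tested on simulated data. Python 3.11.15, NumPy 2.4.6, pandas 2.3.3 and Matplotlib 3.10.9 were used.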

Additional observations from a re-analysis of the deposited data

How the results depend on the processing

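The count of PDGF genes past 2-fold was 1 in TAL of Scd2f/f mice against untreated liver, 1 in TAL of Scd2f/f;CC against TAL of Scd2f/f mice and 0 in TAL of Scd2f/f;CC mice against untreated liver. With a limit of 1.5-fold, these counts were 4, 4 and 1. With a limit of 3-fold, the count in TAL of Scd2f/f;CC against TAL of Scd2f/f mice was 0. After adding 1 to every mean as a pseudocount, it was 0 in both of the first 2 comparisons, as every ratio is then drawn towards 1, and the log2 ratio of Pdgfb in the first was 0.69 in place of 1.62, while that of Pdgfrb in the second was -0.92 in place of -1.06. With genes of an average of at least 1 alone, the count in TAL of Scd2f/f mice against untreated liver was 0, since Pdgfb, with an average of 0.829, was left out. Centring on the median left all counts as they were, and no log2 ratio of a member changed sign with a pseudocount or with centring. Per kilobase of the longest transcript, Pdgfrb, at 1.83 in TAL of Scd2f/f mice, was nearly level with Pdgfa, at 1.80, and in TAL of Scd2f/f;CC mice it lay below Pdgfa and Pdgfc. No paired analysis was possible because the columns are group means and carry no replicate number, and no replicate could be left out for the same reason. Depth is unknown, so how far low counts limit Pdgfb and Pdgfrl cannot be stated.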
